A study of Mus with 17 samples.

Results

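The genes described here are the MHC class II chains of the mouse (H2-Aa, H2-Ab1 and H2-Eb1), their invariant chain Cd74, the subunits of the peptide exchanger H2-DM (H2-DMa, H2-DMb1 and H2-DMb2) and the class II transactivator Ciita. They were chosen by name, 8 of the 24937 genes with a value in the deposited count files, and all 8 passed the filter on low counts that left 13204 genes for testing. Bulk RNA sequencing of whole liver was done in 17 mice, all males of the C57BL6/JBomTac strain, with 1 library per mouse. In 8 mice the feed was a western diet and the drinking water held fructose at 42 g/L, both for 52 weeks, a regimen that the labels name as a model of advanced NASH, a fatty liver disease with inflammation. Standard chow and plain water were given to 9 mice of the same age. All 17 were fasted overnight before sacrifice. Feed and fructose were given together, so their parts cannot be told apart. The treatment field of the labels was used for the groups, since the source name reads western diet for all 17 libraries.

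MHC class II molecules are pairs of an alpha and a beta chain on the surface of antigen-presenting cells, where they show peptides of engulfed proteins to helper T cells. The invariant chain fills the groove of a new pair and guides it to endosomes, where cathepsins trim the invariant chain and H2-DM exchanges its last fragment for a peptide. Ciita binds no DNA itself; it joins factors already bound at the class II promoters and sets the level of the class II genes, of Cd74 and of H2-DM. In liver the molecules are known from dendritic cells, B cells, Kupffer cells, recruited macrophages and, at a lower level, the sinusoidal endothelium.

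Library totals ran from 3604212 to 9071908.5 counts. Levels are given as CPM, the counts of a gene over the library total scaled by TMM factors. A count of 0 allows up to 3 counts, or 0.331 to 0.832 CPM of the library totals without TMM factors. Hepatocyte genes were abundant in every library, with Alb, the gene of serum albumin, at 3579 ± 811 CPM on western diet and 4670 ± 464 CPM on chow (SD, n = 8 and 9). Western diet replicate 5 and chow replicate 2 carried transcripts of pancreas: 7 genes of pancreatic enzymes summed to 4038 and 12210 CPM there and to between 103 and 381 CPM in the other 15 libraries. Of 13204 tested genes 24.8% were higher and 23.6% lower on western diet, 48.4% in all (quasi-likelihood test of edgeR, threshold 0.05 after Benjamini-Hochberg adjustment over all genes tested). In 6.98% all western diet libraries exceeded all chow libraries, and in 5.05% all lay below them. The calls were 3271 higher and 3122 lower, and with libraries scaled by their totals alone 4485 higher and 1615 lower. Each label set describes 1 mouse. The p-values of diet comparisons set a difference against the spread between these 17 mice, and those of relations use the mice of 1 diet.

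All 8 genes rose on western diet, by 2.25-fold to 4.58-fold, against a background of 24.8% of tested genes. Their median log2 difference was 1.84, and that of all tested genes −0.0091. In 6 of the 8 the lowest western diet library exceeded the highest chow library, which held for 6.98% of tested genes; the other 2, Ciita and H2-DMb2, overlapped. More cells that carry class II transcripts and more transcript per cell cannot be told apart in whole liver. Western diet replicate 5 was the highest western diet library in all 8 genes and chow replicate 8 the highest chow library in all 8. Western diet replicate 3 was the lowest western diet library in 7 of them. Without both libraries that carried pancreatic transcripts, an alternative chosen after seeing the data, 7 of the 8 rose and H2-DMb2 did not pass.

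**Figure D1:**
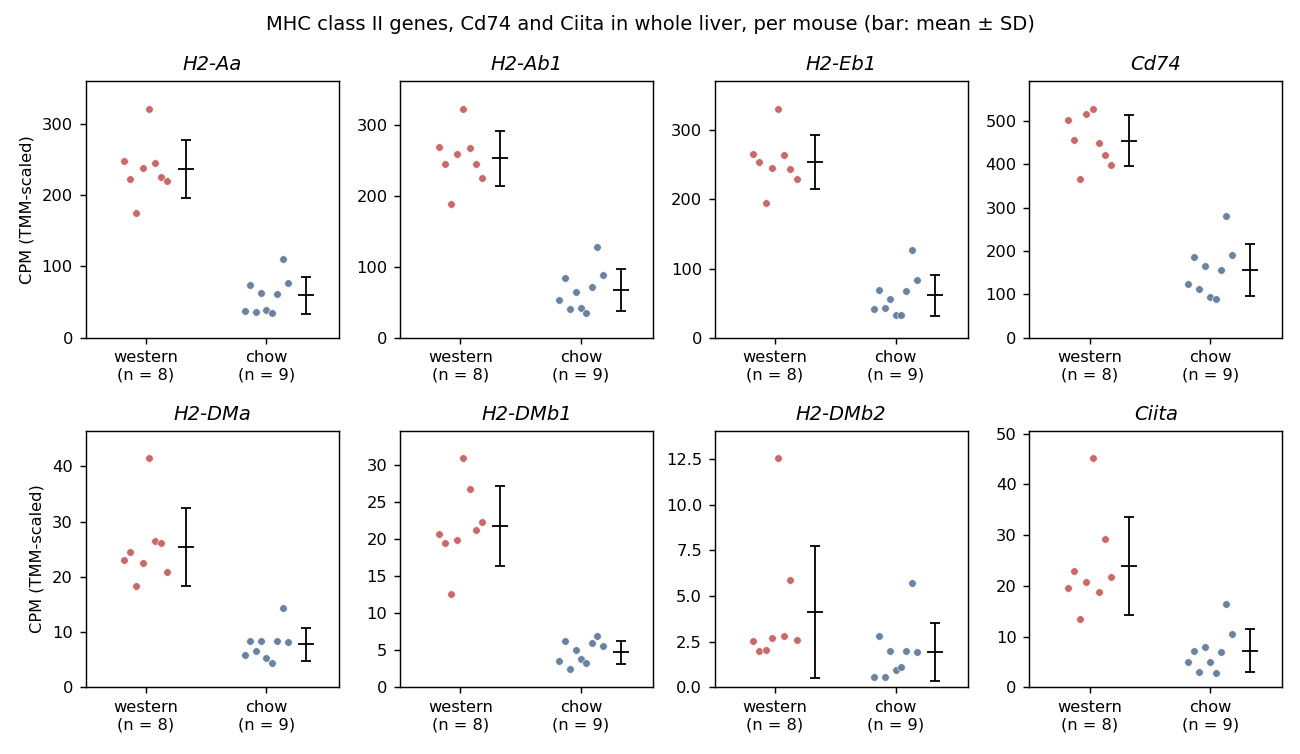
CPM of the 8 genes in whole liver, 1 point per mouse, with 8 western diet mice left of 9 chow mice in each panel and a bar for mean ± SD. The groups are apart in 6 panels and overlap for Ciita and H2-DMb2.

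The 3 classical chains rose 3.76-fold to 4.15-fold. H2-Aa, the alpha chain of the I-A molecule, ran from 175 to 322 CPM with a median of 232 CPM on western diet, and from 35.2 to 111 CPM with a median of 61.6 CPM on chow. The lowest western diet mouse thus stood above the highest chow mouse. The rise was 4.003-fold (log2 difference 2.001 ± 0.22, ± SE, adjusted p = 1.03e-06, edgeR). H2-Ab1, the beta chain of I-A, ran from 189 to 323 CPM with a median of 252 CPM on western diet, against 34.7 to 128 CPM with a median of 64.6 CPM on chow, 3.76-fold higher (1.91 ± 0.22, adjusted p = 1.81e-06, edgeR). H2-Eb1, a beta chain of I-E, had 195 to 332 CPM and a median of 249.8 CPM on western diet, against 32.5 to 126 CPM and a median of 55.6 CPM on chow, 4.15-fold higher (2.05 ± 0.23, adjusted p = 1.74e-06, edgeR). In all 3 chains the groups were apart, and the spread between mice, as a share of the mean, was 15.3% to 17.4% on western diet and 43.4% to 48.7% on chow.

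The alpha chain partner of H2-Eb1 was all but missing. C57BL/6 mice carry a haplotype with a deletion at the promoter of this alpha chain gene and make no I-E on the cell surface, although the beta chain is transcribed. The row H2-Ea-ps, which RefSeq annotates as a transcribed pseudogene, had a count of 0 in 14 libraries and 0.5 to 1.5 counts in the other 3, at or under the 3 counts that a 0 allows, and was not tested.

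The invariant chain rose too, by less than the chains it accompanies. Cd74 ran from 366 to 529 CPM with a median of 453 CPM on western diet, and from 90.3 to 280 CPM with a median of 156 CPM on chow. The groups did not overlap, and the gap lay between western diet replicate 3 and chow replicate 8. The rise was 2.93-fold (log2 difference 1.55 ± 0.19, adjusted p = 2.69e-06, edgeR). The SD of Cd74 between mice was 12.9% of the mean on western diet and 38.6% on chow.

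Of the H2-DM subunits, H2-DMb1 had the largest rise of the 8 genes and H2-DMb2 the smallest. H2-DMa, the alpha subunit, ran from 18.4 to 41.4 CPM with a median of 23.8 CPM on western diet, and from 4.37 to 14.5 CPM with a median of 8.13 CPM on chow, 3.32-fold higher (log2 difference 1.73 ± 0.19, adjusted p = 8.25e-07, edgeR). The groups of H2-DMa did not overlap. H2-DMb1, a beta subunit, ran from 12.6 to 30.9 CPM with a median of 20.9 CPM on western diet, and from 2.51 to 6.92 CPM with a median of 5.02 CPM on chow. It rose 4.58-fold (2.20 ± 0.19, adjusted p = 2.32e-08, edgeR), with the smallest p of the 8 genes, the 99th of all genes tested.

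H2-DMb2, the other beta subunit gene, was the exception. It ran from 1.99 to 12.5 CPM with a median of 2.65 CPM on western diet, and from 0.579 to 5.7 CPM with a median of 1.95 CPM on chow. Only western diet replicates 5 and 7, at 12.5 and 5.86 CPM, stood above chow replicate 8, the highest chow library. The rise was 2.25-fold (log2 difference 1.17 ± 0.46, adjusted p = 0.0411, edgeR) and rested on 9 to 109 counts per western diet library and 3 to 28.5 counts per chow library. With western diet replicate 5 left out it did not pass, at 0.67 in log2 (adjusted p = 0.163, edgeR), and when each library was left out in turn 9 of 17 fits lost the call, with an adjusted p that ran from 0.00767 to 0.163. The lost calls were those without western diet replicates 5 and 7 and without each chow library but replicates 2 and 8.

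The H2-DMb rows are closely related copies that lie next to each other, so reads may be split between them, and the treatment of such reads is not given in the sources used here. H2-DMb2 made up 8.95% to 28.9% of the counts of both rows on western diet and 15.5% to 45.97% on chow. The mean share was 14.5% ± 7.04 on western diet against 26.4% ± 8.91 on chow (SD, n = 8 and 9), lower by 11.9 percentage points (two-sided exact permutation test over 24310 labellings, p = 0.00724, chosen after the values were seen). Of the western diet mice 7 of 8 lay below the chow mean and 6 of 8 below every chow mouse. With both rows summed before the fit the log2 difference was 1.96 (adjusted p = 2.4e-06, edgeR).

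Ciita rose 3.39-fold with wide spread. It ran from 13.4 to 45.1 CPM with a median of 21.2 CPM on western diet, and from 2.87 to 16.5 CPM with a median of 7.04 CPM on chow (log2 difference 1.76 ± 0.30, adjusted p = 1.10e-04, edgeR). Western diet replicate 3 lay below chow replicate 8, and the other 7 western diet mice lay above all chow mice. The spread between mice was 40.3% of the mean on western diet and 58.5% on chow. The rise was 1.57 in log2 without western diet replicate 5 and 1.99 without chow replicate 8, and its call held whichever of the 17 libraries was left out.

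The counts of the members were next set against those of Cd74 in the same library, a ratio that does not depend on the scaling between libraries. For each mouse the log2 of the member's count over the Cd74 count was taken, with 0.5 added to each, and 7 such ratios were compared between diets by two-sided exact permutation tests over all 24310 labellings, Benjamini-Hochberg adjusted over the 7 ratios. A ratio between genes mixes level and transcript length, so only its change between diets is read.

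The classical chains and H2-DMb1 rose by more than Cd74. H2-Eb1 had 0.474 to 0.627 counts per count of Cd74 on western diet and 0.338 to 0.451 on chow, a mean ratio 1.45-fold higher on western diet. H2-Aa had 0.462 to 0.608 counts per count of Cd74 on western diet and 0.303 to 0.409 on chow, 1.38-fold higher, and H2-Ab1 0.501 to 0.6096 on western diet and 0.355 to 0.464 on chow, 1.30-fold higher. In these 3 ratios all 8 western diet mice lay above all 9 chow mice, so each had p = 4.11e-05, the smallest that these permutations can give, and an adjusted p = 9.6e-05. For H2-DMb1 the log2 ratio averaged −4.41 ± 0.29 on western diet and −4.99 ± 0.28 on chow (SD), 1.49-fold higher, with 5 of 8 western diet mice above all chow mice and 8 of 8 above the chow mean (exact permutation test, adjusted p = 0.00209). With H2-DMb2 added to it the difference was 0.36 in log2 and did not pass (exact permutation test, adjusted p = 0.0514).

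The other members did not pass against Cd74. Ciita differed from Cd74 by 0.20 in log2 (−4.32 ± 0.44 on western diet, −4.52 ± 0.37 on chow, SD, exact permutation test, adjusted p = 0.328), and H2-DMa by 0.12 (exact permutation test, adjusted p = 0.317). For Ciita the difference was smaller than the SD of either diet, so an equal rise of Ciita and Cd74 is not shown. H2-DMb2 was lower against Cd74 by −0.58 in log2 (exact permutation test, adjusted p = 0.156), with 4 of 8 western diet mice below all chow mice. Without western diet replicate 5 that difference was −0.82 and passed (exact permutation test, adjusted p = 0.0263; 0.0263 to 0.289 over the settings that left out 1 library).

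**Figure D2:**
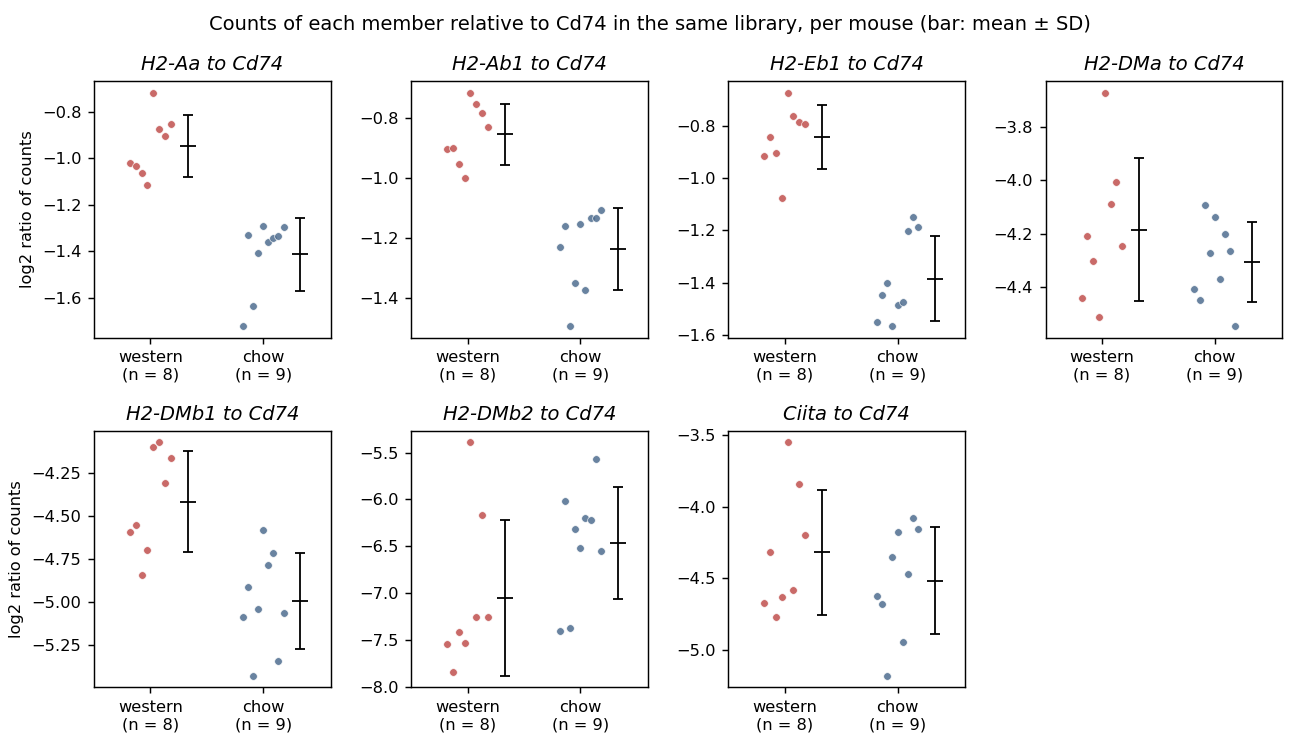
Log2 ratio of the counts of 7 members to those of Cd74 in the same library, 1 point per mouse, western diet left of chow, with mean ± SD; the y axes differ between panels and do not start at 0. The groups are apart for H2-Aa, H2-Ab1 and H2-Eb1, and overlap for the other 4.

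Within a diet, the 8 genes moved together between mice of the chow group. The log2 CPM of each other member was related to that of Cd74 over the 9 chow mice, 7 relations with permutation p-values from all orders of the mice. Pearson's r was 0.968 for H2-Aa, 0.982 for H2-Ab1, 0.98 for H2-Eb1, 0.959 for H2-DMa, 0.926 for Ciita, 0.864 for H2-DMb2 and 0.853 for H2-DMb1. Spearman's rho ran from 0.733 for H2-DMb2 to 0.967 for H2-Ab1. The adjusted permutation p of r was 1.74e-04 to 0.00429 and that of rho 5.79e-04 to 0.0311. Without chow replicates 6 and 8, the mice farthest from the median of Cd74, r was 0.810 to 0.958. Cd74 and the members share the library and its scaling factor in each of these points.

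On western diet the relation passed for the classical chains only. Over the 8 mice r was 0.893 for H2-Ab1, 0.841 for H2-Aa and 0.827 for H2-Eb1, with rho of 0.881, 0.833 and 0.833 and adjusted permutation p of 0.00903, 0.0115 and 0.0154 for r and 0.0359 for each rho. Without western diet replicates 3 and 5, the mice farthest from the median, r was 0.781, 0.718 and 0.579 over 6 mice. For H2-DMa, H2-DMb1, Ciita and H2-DMb2 r was 0.639, 0.623, 0.557 and 0.419, with rho of 0.548, 0.3095, 0.429 and 0.357 and adjusted permutation p of 0.129 to 0.304 for r and 0.299 to 0.462 for rho. Without replicates 3 and 5 these 4 values of r were −0.032 to −0.47. Leaving out the mice farthest from the median also narrows the range of Cd74, which can lower r by itself. With any 1 western diet mouse left out all 4 stayed positive, the lowest at 0.0051 for H2-DMb2. Cd74 itself spread less between the western diet mice, and the difference between the diets in these relations was not tested.

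Genes that act on class II molecules or on their peptides rose for the most part. Of 13 such genes found in the files 12 were tested, of which 8 rose, 1 fell and 3 did not pass. Over all tested genes 24.8% rose and 23.6% fell. Cathepsin S (Ctss), the protease that makes the last cuts in the invariant chain, had 217 ± 32.2 CPM on western diet against 64.8 ± 13.0 CPM on chow, 3.35-fold higher (SD, adjusted p = 1.11e-09, edgeR). Legumain (Lgmn), an endosomal protease, rose 1.90-fold (adjusted p = 2.32e-07, edgeR), and Ifi30, a reductase that opens disulphide bonds of antigens, 2.36-fold (adjusted p = 2.61e-07, edgeR). These 3 genes had no overlap between the diets. The ubiquitin ligases March1 and March8, which can both mark class II molecules for breakdown, moved apart: March1 was 2.77-fold higher (13.4 ± 5.49 on western diet, 4.88 ± 0.912 CPM on chow, adjusted p = 6.12e-06, edgeR) and March8 fell by 0.33 ± 0.077 in log2 (adjusted p = 0.00145, edgeR). When libraries were scaled by their totals alone, without TMM factors, which moved the median log2 difference of all genes to 0.12, March8 did not pass (−0.20, adjusted p = 0.0523, edgeR).

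The subunits of H2-DO, an inhibitor of H2-DM known mainly from B cells, were, like H2-DMb2, highest in single mice. H2-Oa, its alpha chain, rose 2.78-fold (log2 difference 1.48 ± 0.38, adjusted p = 0.00303, edgeR), with 7.83 CPM in western diet replicate 5 and at most 3.45 CPM in any other western diet library. H2-Ob, its beta chain, ran from 4.15 to 31.7 CPM with a median of 5.53 CPM on western diet, and from 1.16 to 12.2 CPM with a median of 4.201 CPM on chow. It did not pass (1.15 ± 0.48, adjusted p = 0.0540, edgeR; adjusted p = 0.0360 with library size alone). H2-Eb2, a further beta chain gene, stood at 3.15 ± 3.22 CPM on western diet against 1.67 ± 1.52 CPM on chow and did not pass either (1.04 ± 0.55, adjusted p = 0.127, edgeR). In H2-Oa, H2-Ob and H2-Eb2 western diet replicate 5 was the highest western diet library, and in H2-Ob and H2-Eb2 chow replicate 8 was the highest chow library.

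The factors to which Ciita binds showed no common direction. Of 7 tested genes of the promoter complex 1 rose, 1 fell and 5 did not pass, where 24.8% of all tested genes rose and 23.6% fell. With RLE size factors or DESeq2 2 fell. Nfya, a subunit of the trimer NF-Y that binds CCAAT boxes, rose 1.49-fold (31.97 ± 3.86 CPM on western diet, 21.4 ± 2.74 CPM on chow, adjusted p = 2.41e-05, edgeR), and Nfyb, another subunit, fell by 0.42 ± 0.076 in log2 (41.2 ± 3.73 against 54.9 ± 6.51 CPM, adjusted p = 1.55e-04, edgeR), both with no overlap between the diets. Of the factors that bind the X box, Rfxap differed by −0.19 ± 0.080 (adjusted p = 0.05003, edgeR) and Rfx5 by −0.14 ± 0.091 in log2 (adjusted p = 0.203, edgeR).

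Genes upstream of Ciita rose in part. Ciita has promoters used in myeloid cells, in B cells and in response to interferon gamma, and counts per gene do not separate them. Of 8 tested genes of the interferon gamma arm 5 rose and 3 did not pass, where 24.8% of all tested genes rose. Ifngr1, a receptor chain, rose 1.75-fold (66.7 ± 11.5 CPM on western diet, 38.3 ± 3.86 CPM on chow, adjusted p = 6.45e-07, edgeR). The receptor chain Ifngr2 and the factor Irf2 rose 1.25-fold and 1.32-fold (adjusted p = 2.19e-04 and 7.75e-04, edgeR). With library size alone 8 of the 8 rose, where 4485 of all 13204 tested genes rose and their median log2 difference was 0.12. Without western diet replicate 5 it was 4 of the list, where 3066 of all 13162 tested genes rose. The gene of the cytokine itself, Ifng, was not tested: it was at or under 0.283 CPM in every western diet library and 0.204 CPM in every chow library, below the level that a count of 0 allows. Of the myeloid factors Spi1 rose 2.68-fold (35.6 ± 4.36 CPM on western diet, 13.3 ± 2.54 CPM on chow, adjusted p = 7.00e-09, edgeR) and Irf8 2.90-fold (47.7 ± 16.3 against 16.6 ± 6.44 CPM, adjusted p = 1.69e-05, edgeR). Irf4, which acts in B cells and in some dendritic cells, was at 5.61 ± 6.18 CPM on western diet against 3.29 ± 2.87 CPM on chow (log2 difference 0.87 ± 0.57, adjusted p = 0.218, edgeR).

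Of the MHC class I genes none of 4 passed, where 48.4% of all tested genes did. H2-K1, a class I heavy chain, was at 947 ± 190.2 CPM on western diet and 947 ± 102 CPM on chow (log2 difference −4.9e-04 ± 0.10, adjusted p = 0.998, edgeR), and Nlrc5, the class I relative of Ciita, at 54.3 ± 11.9 against 47.7 ± 9.11 CPM (0.19 ± 0.13, adjusted p = 0.247, edgeR). The heavy chain H2-D1 and the light chain B2m differed by 0.23 ± 0.099 and 0.11 ± 0.11 in log2 (adjusted p = 0.0663 and 0.454, edgeR). With DESeq2 the count was also 0; H2-D1 had an unadjusted p under 0.05, and it passed with library size alone and without western diet replicate 5. The costimulatory genes Cd86 and Cd40, which antigen-presenting cells show beside class II, rose 2.56-fold and 2.57-fold (adjusted p = 3.26e-06 and 5.13e-05, edgeR). The helper T cell coreceptor Cd4, which binds class II, rose 2.18-fold (adjusted p = 0.0396, edgeR) and did not pass without western diet replicate 5 (adjusted p = 0.165).

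**Figure D3:**
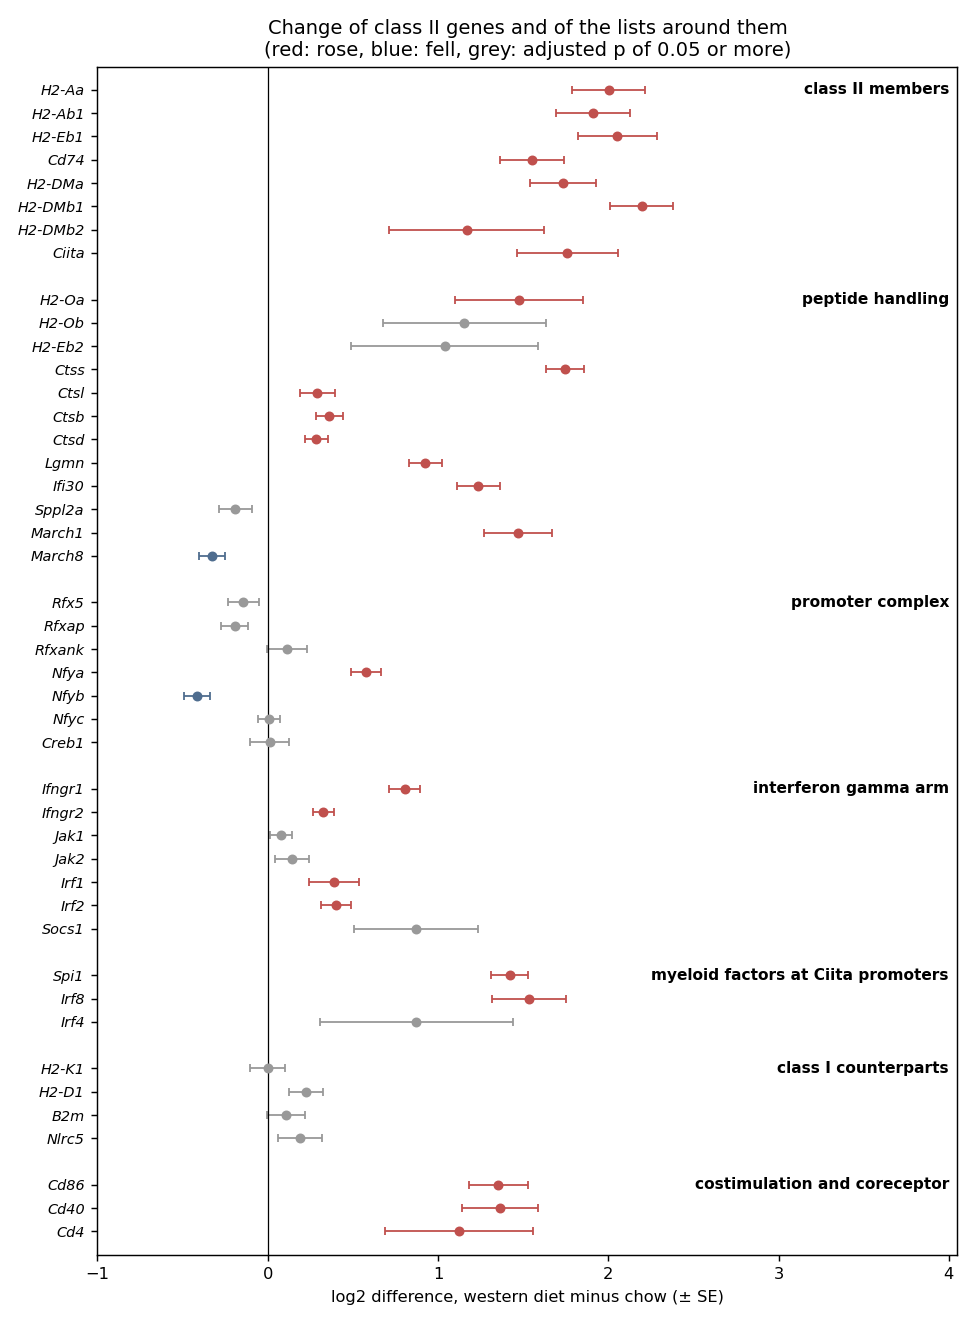
Log2 difference between 8 western diet and 9 chow mice with its SE for the 8 class II genes and for tested genes of 6 lists around them; red rose, blue fell and grey had an adjusted p of 0.05 or more. The 8 class II genes lie between 1.17 and 2.20, and the class I genes between −4.9e-04 and 0.23.

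Of the 8 genes 6 are neighbours. They lie together on chromosome 17 of the assembly mm10 (RefSeq annotation of GRCm38.p6). Their spans, exons and introns together, are 34119693 to 34139101 for H2-DMa, 34143229 to 34151553 for H2-DMb2, 34153191 to 34160229 for H2-DMb1, 34263227 to 34269418 for H2-Ab1, 34282744 to 34287823 for H2-Aa and 34305867 to 34316674 for H2-Eb1. Ciita lies on chromosome 16, 10480014 to 10531064, and Cd74 on chromosome 18. The stretch of 252 kb between the ends of H2-Oa and H2-Ea holds 14 tested genes, 6 of them members. Of the 8 others 5 rose and 3 did not pass, where 24.8% of all tested genes rose. The immunoproteasome subunit Psmb9 rose 2.66-fold and Psmb8 1.94-fold, and Tap1 and Tap2, the peptide pump of class I loading, rose 1.61-fold and 1.62-fold (adjusted p = 5.51e-07, 1.77e-05, 5.53e-04 and 4.19e-05, edgeR). Brd2, a chromatin reader whose span overlaps that of H2-DMa by 3122 bases, was at 234 ± 32.3 CPM on western diet and 257 ± 33.1 CPM on chow (log2 difference −0.13 ± 0.091, adjusted p = 0.235, edgeR). The strand setting of the counting is not given in the sources used here, so reads of that overlap may be shared.

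**Figure D4:**
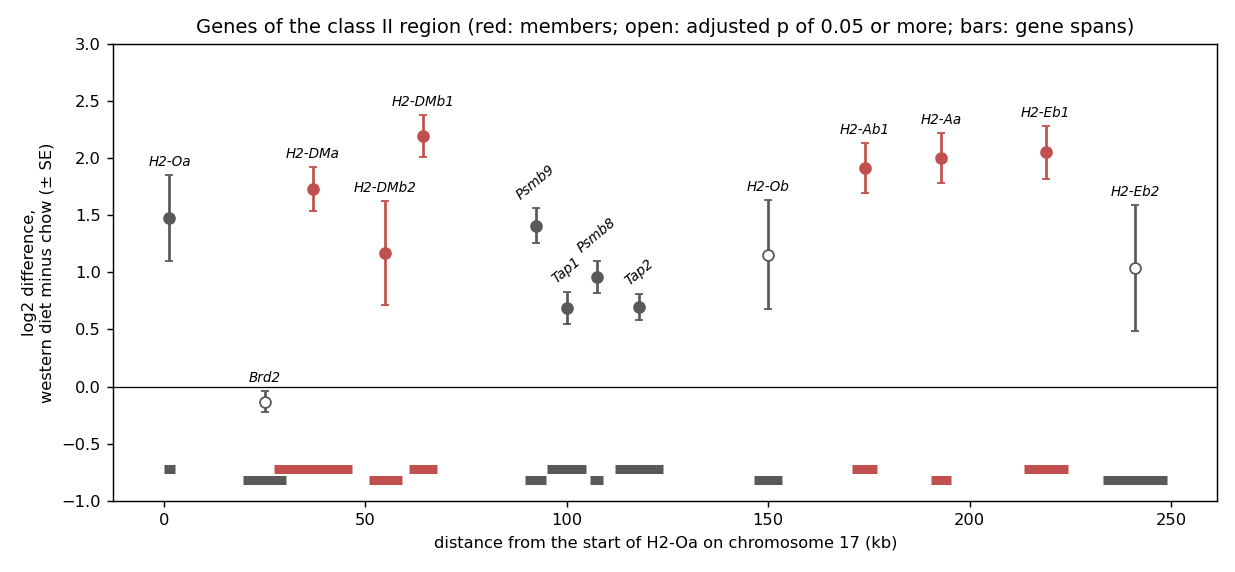
Log2 difference with its SE (western diet minus chow, n = 8 and 9) of the 14 tested genes of the class II region by distance from the start of H2-Oa in kb; red points are members, open points had an adjusted p of 0.05 or more, and bars below show the gene spans. Brd2 at −0.13 lies beside H2-DMa at 1.73.

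Markers of several cell types that carry class II rose beside it. For comparison, 24.8% of all tested genes rose and 23.6% fell. Of 7 tested dendritic cell markers 6 rose, and Zbtb46, a factor of conventional dendritic cells, fell (log2 difference −0.45 ± 0.16, adjusted p = 0.0227, edgeR; not past the threshold with library size alone). Itgax, an integrin of dendritic cells and of some macrophages, was at 33.1 ± 8.13 CPM on western diet against 5.79 ± 2.58 CPM on chow, and the cross-presenting cell marker Clec9a at 12.03 ± 1.56 against 5.87 ± 0.926 CPM. Their sum over 9 genes was 50.9 to 92.1 CPM on western diet and 19.8 to 30.7 CPM on chow. All 7 markers of monocyte-derived and lipid-associated macrophages rose (sum 695 to 991 CPM on western diet, 207 to 320 CPM on chow), as did all 5 of leukocytes and macrophages at large (385 to 742 CPM on western diet, 137 to 280 CPM on chow). Kupffer cell markers moved in both directions: of 7, 4 rose, 2 fell and 1 did not pass. Cd163, a scavenger receptor for haemoglobin, was at 2.39 ± 1.03 CPM on western diet against 45.2 ± 9.28 CPM on chow (SD, n = 8 and 9), with no overlap (log2 difference −4.32 ± 0.21, adjusted p = 5.55e-11, edgeR). Marco, a scavenger receptor for bacteria and particles, was at 6.39 ± 9.83 CPM on western diet against 48.8 ± 37.1 CPM on chow (−2.94 ± 0.71, adjusted p = 0.00297, edgeR). Cd5l, a secreted protein of macrophages, and Clec4f, a lectin of Kupffer cells, rose (389.7 ± 85.1 CPM on western diet against 169.9 ± 29.9 CPM on chow, and 222 ± 47.7 against 148 ± 16.1 CPM). These abundant genes carried most of the sum of the list, which was 539 to 1018 CPM on western diet and 359 to 617 CPM on chow. Of 3 markers of the sinusoidal endothelium 2 rose and 1 fell (175 to 307 CPM on western diet, 188 to 233 CPM on chow). Of 6 tested B cell markers 2 rose, near the share of all tested genes, and 0 rose without western diet replicate 5. The sum of 7 B cell markers was 24.05 to 180 CPM on western diet and 10.8 to 81.2 CPM on chow. The 3 T cell markers rose, 1 of them without western diet replicate 5 (4.31 to 46.1 CPM against 2.36 to 11.6 CPM). No marker of these lists was at 0 in every library, and their part in the rise of the class II genes was not tested.

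Against 4 general leukocyte and macrophage genes the rise of Cd74 did not pass after adjustment. The log2 ratio of Cd74 counts to those of Ptprc, the surface phosphatase of all leukocytes, averaged 2.39 ± 0.57 on western diet and 2.09 ± 0.30 on chow (SD), and 5 of 8 western diet mice lay above the chow mean (exact permutation test over 24310 labellings, p = 0.186, adjusted p = 0.248 over 4 ratios). Against the macrophage gene Adgre1 the ratio averaged 2.097 ± 0.59 on western diet and 1.84 ± 0.74 on chow (exact permutation test, adjusted p = 0.451). Against Csf1r, a growth factor receptor of macrophages, the mean ratio was higher by 0.52 in log2 (exact permutation test, p = 0.0390, adjusted p = 0.156). There 8 of 8 western diet mice lay above the chow mean and 0 above the highest chow mouse. Against the lysozyme gene Lyz2 the mean ratio was higher by 0.37 (exact permutation test, adjusted p = 0.192). There 7 of 8 lay above the chow mean and 3 above the highest chow mouse. With H2-Ab1 in place of Cd74 the difference was 0.68 for Ptprc, 0.90 for Csf1r and 0.75 for Lyz2, each past the threshold, and 0.64 for Adgre1, which did not pass. Against Csf1r Cd74 also passed without chow replicate 8 (difference 0.67), and against Lyz2 without western diet replicate 3 (difference 0.50).

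The mice with the most class II transcript of their diet also held the most transcript of several kinds of leukocyte, but not of all. One of them, western diet replicate 5, also carried pancreatic transcripts, 4038 CPM over 7 genes, while chow replicate 8 had 163 CPM. Transcripts of liver and of other tissue cannot be told apart in western diet replicate 5. The 7 B cell markers summed to 180 CPM in western diet replicate 5, where no other western diet mouse passed 69.8 CPM, and to 81.2 CPM in chow replicate 8, where no other chow mouse passed 43.4 CPM. Cd79a, a signalling part of the B cell receptor, was at 34.3 CPM in western diet replicate 5, 13.5 CPM in western diet replicate 7 and 18.7 CPM in chow replicate 8. The 3 T cell markers summed to 46.1 CPM in western diet replicate 5 and to at most 14.2 CPM in its group otherwise, and to 11.6 CPM in chow replicate 8 with at most 9.34 CPM otherwise. Markers of monocyte-derived and lipid-associated macrophages were also highest in these mice, at 991 CPM in western diet replicate 5 (986 CPM in the next) and 320 CPM in chow replicate 8 (299 CPM in the next). Dendritic cell markers were highest in western diet replicate 5, at 92.1 CPM with at most 71.7 CPM otherwise, but in chow replicate 8 they stood at 28.7 CPM, below the 30.7 CPM of chow replicate 6. The general leukocyte gene Ptprc was highest in the same libraries of each diet, with 186 and 63.9 CPM. The 5 markers of leukocytes and macrophages at large had their highest sum in western diet replicate 5, at 742 CPM. In chow replicate 8 that sum was 249 CPM, below the 280 CPM of chow replicate 2. Kupffer cell markers were highest in western diet replicate 4 and chow replicate 6, at 1018 and 617 CPM. They stood at 846 CPM in western diet replicate 5 and at 520 CPM in chow replicate 8. H2-DMb2, Ciita, H2-Ob and H2-Oa were highest in western diet replicate 5 as well, and the part of any of these cell types in their values was not tested.

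**Figure D5:**
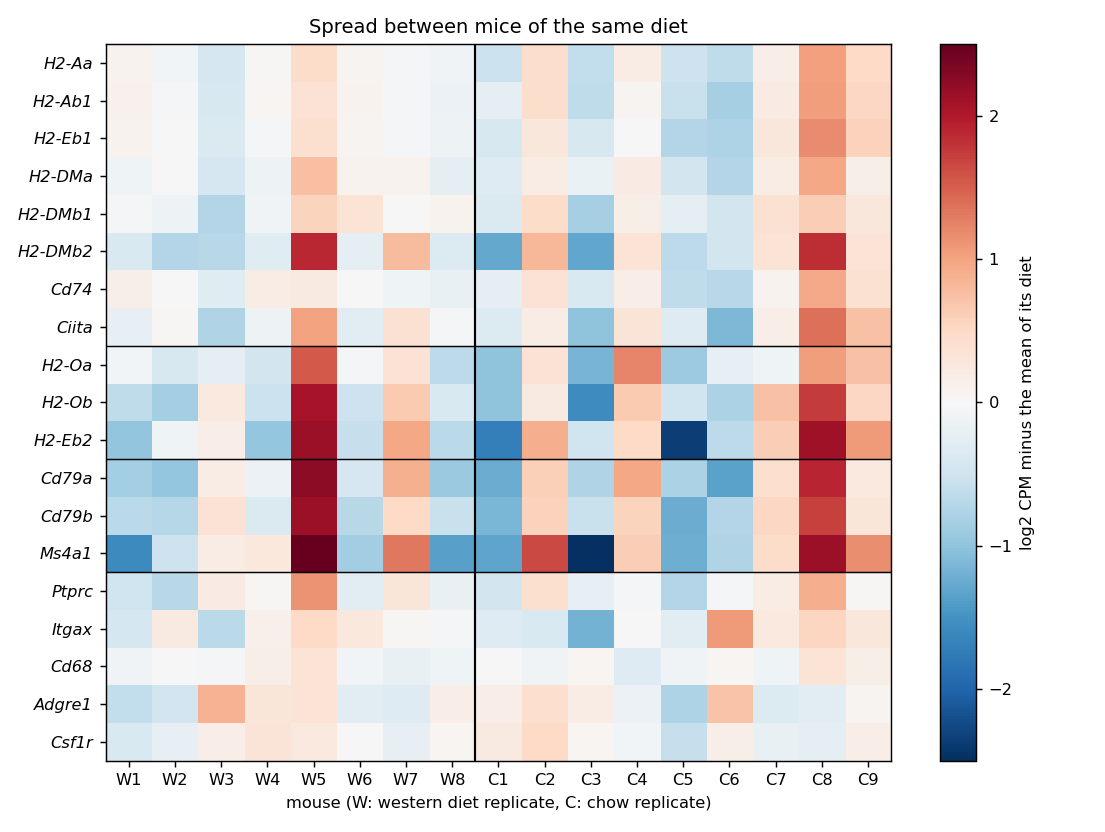
Log2 CPM of each gene in each of 17 libraries minus the mean of its diet, with 8 western diet libraries left of 9 chow libraries; rows are the 8 class II genes, 3 related class II genes, 3 B cell markers and 5 leukocyte or macrophage genes. Columns W5 and C8 are red in the 8 class II genes, most deeply for H2-DMb2, and in the B cell markers.

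The genes most like Cd74 in their spread within the diets were found by the correlation of log2 CPM after the mean of each diet was subtracted, over 17 libraries and 13013 genes of an average log2 CPM of at least 1, as a description. The highest r outside the members was that of Mir5107 (0.908), a microRNA gene annotated within the span of Cd74, so its counts may be reads of Cd74. It was followed by Degs2, a desaturase and hydroxylase of ceramide synthesis (0.892), the actin-binding peptide gene Tmsb10 (0.869), the cytokine receptor Il21r (0.857), the phosphatase Ptpn7 (0.854), the surface antigen Ly6a (0.843) and the channel Panx1 (0.843). These 7 genes rose on western diet, by 2.33-fold to 3.39-fold. The 3 classical chains had r of 0.953 to 0.973 with Cd74 on this measure, and H2-DMb2 0.719.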

How the data were processed

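The values that the authors deposited are expected counts by gene symbol, unscaled, in steps of 0.5, with a file for each library. The submitters' processing notes name STAR (2.4.1c), HOMER, FastQC, MultiQC and mm10. Strand setting, annotation release and the rule for reads that match several genes were not given in the sources used here. Per the labels' protocols the NEBNext Ultra RNA kit and paired-end reads were used. Of 24940 genes 3 had no value and were left out. Counts were rounded to whole numbers for the fits. Diets were compared two-sided in edgeR 4.0.16 under R 4.3.3 (filterByExpr, TMM factors, glmQLFit with robust estimation, glmQLFTest, design of diet alone) over 13204 genes with Benjamini-Hochberg adjustment at 0.05; each SE was taken as the log2 difference divided by the root of its F. Mean CPM, on TMM-scaled totals, stand with their SD. Replicate numbers follow the order of the records and pair no mice. Ratios of counts (0.5 added to the deposited counts) were compared by exact permutation of the absolute difference in means, and relations within a diet use log2 CPM with a prior count of 0.5 (scipy 1.17.1, numpy 2.4.6, pandas 2.3.3 and matplotlib 3.10.9 under Python 3.11.15).

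The members, the lists and the tests were chosen with earlier results of these data known. All members are reported. Of each list around the class II genes, the up to 4 genes with the smallest adjusted p are named. Any gene there that went against the list's median is named too. The cell type markers named, and any further gene named, did not follow this rule and were picked with their values known. Intervals from 0 counts cover counting error only. Alternatives were RLE size factors, library size alone, DESeq2 1.42.0, limma-voom (limma 3.58.1), no filter on low counts, a minimum of 1 CPM in 8 or more libraries, no robust estimation, both H2-DMb rows summed, an offset of 1, H2-Ab1 in place of Cd74, and leaving out each library. Leaving out both libraries with pancreatic transcripts was added after seeing the data. The steps were tested on simulated data first. A few genes of the lists are not reported here by name. No sequence is shown, as none came with the sources used here.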

Additional observations from a re-analysis of the deposited data

Results flagged for a closer look

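A test of the gap to the nearest library against the range of the group marked single libraries in 12 of 46 groups examined. Levels entered it as CPM, not log2 CPM, and groups shared the same libraries, so the number that chance alone would mark is not known. Western diet replicate 5 stood apart with 41.4 CPM of H2-DMa (next highest western diet library 26.4 CPM), 12.5 CPM of H2-DMb2 (5.86 CPM), 7.83 CPM of H2-Oa (3.45 CPM), 31.7 CPM of H2-Ob (11.9 CPM), 10.6 CPM of H2-Eb2 (4.605 CPM) and 34.3 CPM of the B cell gene Cd79a (13.5 CPM). Chow replicate 8 stood apart in 5 of the same 6 genes, with 14.5 CPM of H2-DMa (next highest chow library 8.43 CPM), 5.7 CPM of H2-DMb2 (2.801 CPM), 12.2 CPM of H2-Ob (6.05 CPM), 5.09 CPM of H2-Eb2 (2.44 CPM) and 18.7 CPM of Cd79a (9.69 CPM). The log2 ratio of Cd74 to Lyz2 was −0.15 in western diet replicate 3, against 0.72 in the next lowest western diet library. Western diet replicate 5 also carried pancreatic transcripts, so its values may include tissue other than liver.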

How the results depend on the processing

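Of 157 values under alternatives other than leaving out 1 library, 147 kept their direction and their side of the threshold, and with 1 library left out 460 of 476 did. H2-DMb2 did not pass without a low count filter (log2 difference 1.13) or without both libraries with pancreatic transcripts (0.77), and ran from 0.67 to 1.51 with 1 library left out; the number of the 8 genes that rose was 7 or 8. With both H2-DMb rows summed the difference against Cd74 was 0.36, which did not pass for H2-DMb1 and turned the direction for H2-DMb2, since both then share 1 row. The ratio of H2-DMb2 to Cd74 passed without both libraries with pancreatic transcripts (−0.77) and ran from −0.82 to −0.47 with 1 library left out. With H2-Ab1 in place of Cd74 the ratio passed for Ptprc (0.68), Csf1r (0.90) and Lyz2 (0.75); with 1 library left out Cd74 to Csf1r ran from 0.42 to 0.67 and Cd74 to Lyz2 from 0.25 to 0.50. With library size alone the western diet relation to Cd74 passed for H2-DMa (r = 0.790) and H2-DMb1 (r = 0.767). With 1 library left out r on western diet ran from 0.712 to 0.905 for H2-Aa, 0.805 to 0.944 for H2-Ab1 and 0.690 to 0.943 for H2-Eb1; H2-Aa and H2-Ab1 lost their calls without replicate 3 and H2-Eb1 without replicates 3 or 8. Where no cause is named, it was not tested. H2-DMb2, H2-Oa and H2-Eb2 rest on few counts in chow, which limits their folds. No paired analysis was possible because nothing in GEO's fields links a western diet mouse to a chow mouse.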

Other observations

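The genes most like Ciita and H2-DMb2 in their spread within the diets were looked up after the values were seen and are given as a description over 17 libraries. Among those most like Ciita were Cpxm1 (r = 0.905), the cytokine receptor Il21r (0.903), the B cell surface gene Cd22 (0.869) and the B cell factor Spib (0.869). Among those most like H2-DMb2 were the lymphocyte receptors Slamf6 (0.955) and Btla (0.955), the amino acid oxidase Il4i1 (0.953) and the integrin Itgb7 (0.940).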
